A study of Mus musculus with 8 samples.

Results

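The genes described are 45 listed genes of DNA damage signalling and repair, among them the damage kinases and the genes of end joining, homologous recombination, excision repair and mismatch repair. They were chosen by name, each read by its brightest probe set that the array annotation assigns to that gene alone. Such a probe set was found for 41 of the 45, out of 18193 genes with a probe set of their own on the array. Of the 41, 40 reached the signal level set for testing (68.8 on average over the arrays) and were tested among 11345 genes. Bard1, the ubiquitin ligase partner of Brca1, stayed below that level, and Rbbp8, Xrcc2 and Dclre1c are not analysed here. The remaining entry, Claspn, matched no symbol, while the annotation holds Clspn, the claspin adaptor of the checkpoint kinase Chek1. Clspn is therefore kept outside all counts.

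B16F1 cells, a mouse melanoma line, were injected subcutaneously into a hind limb of mice lacking both TNF receptors (TNFR1,2 -/-, here TNFR KO, of the line B6;129S-Tnfrsf1a[tm1Imx] Tnfrsf1b[tm1Imx]/J) or in wild-type C57BL/6 mice (WT). The 4 groups were irradiated tumours of TNFR KO hosts, untreated tumours of TNFR KO hosts, irradiated tumours of WT hosts and untreated tumours of WT hosts. Irradiated tumours received a single X-ray dose of 20 Gy to the shielded animal's limb, and tumours were excised 5 h after treatment. Hosts were 8 to 12 weeks old, 5 to 7 mice of a host were injected, and tumours had reached 268 to 478 cubic mm. The receptors were missing from the host's tissue only: the labels record no change to the tumour cells. The 2 hosts also differ in strain background, since the mutant line carries 129S ancestry. Whole-tumour RNA was pooled by group, giving 1 pool each read on 2 arrays, so the 2 replicates of a group are technical and no spread between tumours was measured. In such whole-tumour RNA, fewer cells of a type and less RNA per cell cannot be told apart.

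Cells answer a double-strand break with the kinase Atm and answer exposed single-stranded DNA with the kinase Atr, and both kinases halt the cell cycle through Chek1 and Chek2. A broken end is then either joined directly by Ku, DNA-PK and the Xrcc4-Lig4 ligase, or cut back and copied from the sister chromatid by homologous recombination, which needs Brca1, Palb2 and Brca2. Much of this response works by phosphorylation, ubiquitination and recruitment of proteins already present, none of which an RNA measurement reads.

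Values are MAS5 signals, a linear intensity per probe set in arbitrary units, scaled by the authors to the same trimmed mean on every array. Signals of different genes depend on their probes, so amounts of RNA are compared within a gene only. Log2 differences are on the log2(signal + 16) scale with the standard error of limma, and adjusted p-values follow Benjamini-Hochberg over all 11345 genes. For radiation and for host, limma was fitted on the 4 pool means, and a gene was called at an adjusted p under 0.05. Comparisons of single pools were fitted on the 8 arrays and required a 2-fold difference as well. Their p-values cover the noise of duplicate arrays alone.

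Several facts of the whole series touch these results. Poly-A spike-in controls, which are added to RNA before labelling, averaged 12.8 to 20.9 on the TNFR KO arrays, against 5638 to 10462 on the WT arrays, and on the WT arrays they were brighter in the irradiated pool. A difference of host and one of labelling thus cannot be told apart on these arrays. The hybridisation controls, added later, averaged 5230 to 5952 on the TNFR KO arrays, against 4966 to 6539 on the WT arrays. The probe sets of 18S rRNA averaged 510.5 to 956 on the TNFR KO arrays, higher in the irradiated pool, against 284 to 345 on the WT arrays. All 9 melanocyte markers were tested, and their summed signal was 173036 to 182322 in irradiated TNFR KO, 171757 to 181623 in untreated TNFR KO, 180003 to 200952 in irradiated WT and 165338 to 176254 in untreated WT tumours. Melanocyte genes were thus read in every pool. The sums do not show single markers: 1 of the 9 was called lower in TNFR KO hosts, and Mitf was lowest at -0.89 (log2). All 10 tested genes of a list of p53 targets were called higher after irradiation, with a median log2 difference of 1.68.

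The repair genes were read over a wide range of signal. The median of their mean signals was 557.7, the brightest was Brca1 at 7059 and the dimmest tested was Wrn at 114. Duplicate arrays of a pool differed by a median of 0.10 on the log2 scale among the 40 tested members, as among all genes tested, and by at most 0.81. Pool means of 12 of the 40 spanned 2-fold or more, so most members varied less than that over the 4 groups. Bard1 had signals of 43.3 and 23 on the irradiated TNFR KO arrays and 61.8 and 10.3 on the untreated TNFR KO arrays, against 12.1 and 6.7 on the irradiated WT arrays and 37.6 and 44.1 on the untreated WT arrays. These lay mostly near the floor of the array, and the duplicates of 1 pool differed as much as the pools did.

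**Figure D1:**
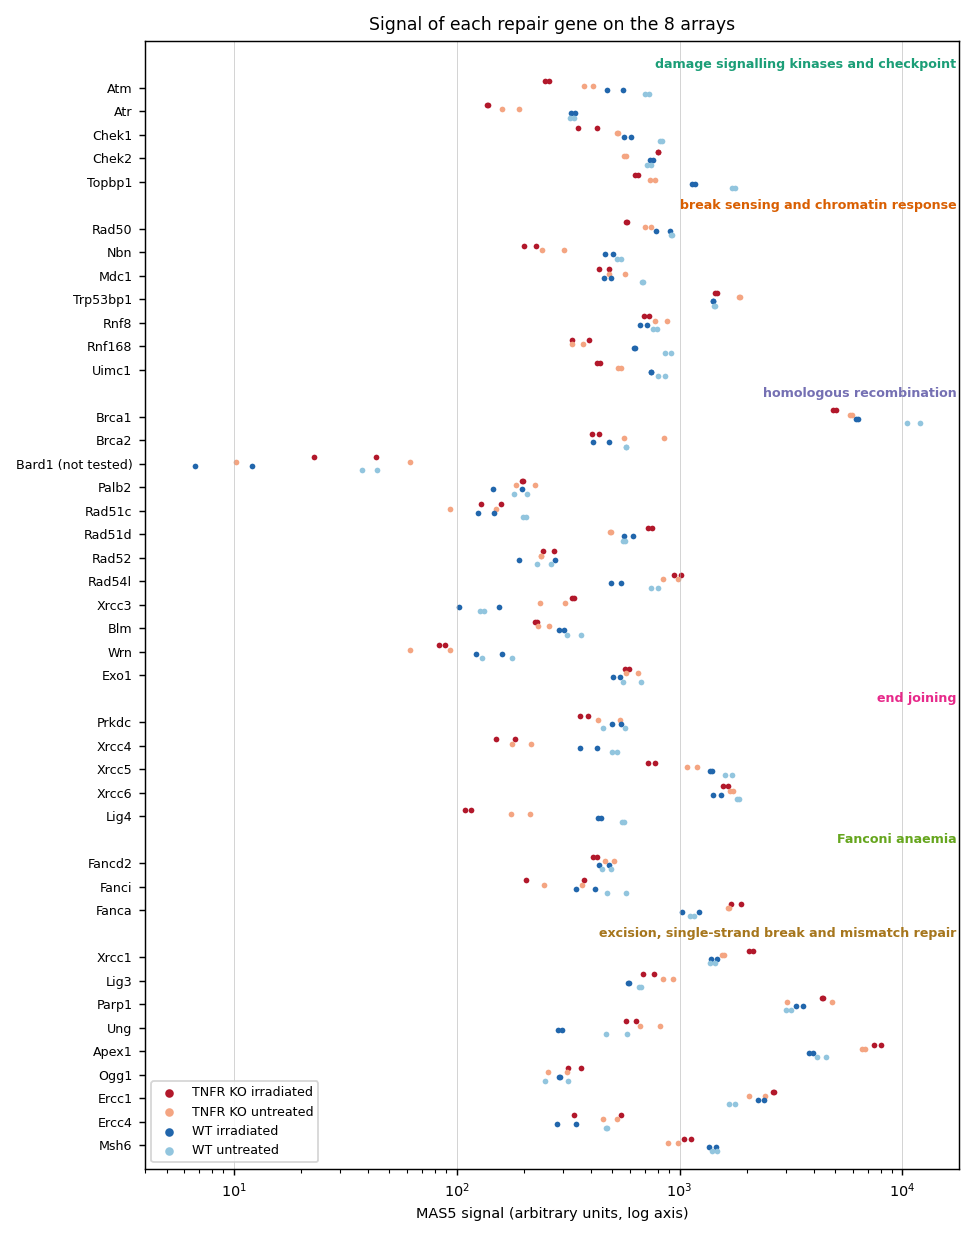
MAS5 signal (arbitrary units, log axis) of the 41 members with a probe set, grouped by repair pathway, with 1 point per array and 2 arrays per pool. Lig4, Xrcc4, Atr, Topbp1, Nbn and Rnf168 show the TNFR KO arrays (red and orange) to the left of all WT arrays (blue), Xrcc3 and Apex1 show them to the right, and members such as Rnf8, Rad52 and Fancd2 overlap.

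Promoter sequence gives a property of these genes that the choice of the list did not use. E2F factors, which drive genes needed in S phase, are known to bind letters of the form TTTCCCGC or TTTCGCGC. In the RefSeq promoter table (build GRCm38.p6, 250 bases before to 50 after each start site) 35 of the 45 members were matched, with 38 windows. The letters TTTCCCGC, TTTCGCGC or TTTGGCGC stood on either strand in 9 of the 38 windows (23.68%), belonging to 8 genes, against 1.84% of all 32851 windows. The motif TTTGAA, of the type found in genes of mitosis, stood in 3 of the 38 (7.89%), against 17.89% of all windows. The members' windows held a median of 22 CpG dinucleotides, against 7 in all windows. A match is a description of letters, and factor binding was not measured. The stretches around the 9 matches are printed to show which members carry the motif, 5′ to 3′ on the gene's strand, with the matching letters in capitals, which read as the reverse complement where the match lies on the opposite strand:
Brca2 (chr5:150522442-150522471, plus strand): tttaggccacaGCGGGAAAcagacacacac
Rad51c, first of 2 windows (chr11:87404477-87404506, minus strand): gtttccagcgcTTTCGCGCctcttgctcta
Rad51c, second of 2 windows (chr11:87404941-87404970, minus strand): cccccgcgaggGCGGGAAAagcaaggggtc
Bard1 (chr1:71103163-71103192, minus strand): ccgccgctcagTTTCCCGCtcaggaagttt
Chek2 (chr5:110839820-110839849, plus strand): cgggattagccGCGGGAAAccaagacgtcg
Topbp1 (chr9:103305187-103305216, plus strand): ccgctcggttgGCGCGAAAgtcggttcccg
Mdc1 (chr17:35841471-35841500, plus strand): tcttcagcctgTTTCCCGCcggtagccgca
Msh6 (chr17:87975054-87975083, plus strand): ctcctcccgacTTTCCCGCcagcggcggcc
Xrcc6 (chr15:82016312-82016341, plus strand): agggggtggaaGCGGGAAAtgcgagtgggc
Among members with a promoter, 2 of the 12 genes called lower in TNFR KO hosts (described further on) held a match, as did 0 of the 5 called higher and 5 of the 16 tested but not called, with Bard1 and Dclre1c untested.

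The first comparison asked how tumours differed 5 h after irradiation, over both hosts. None of the 40 repair genes was called, at 0 higher and 0 lower, while 1.9% of all genes tested were called in either direction. The smallest adjusted p was 0.137, for Atm, and 8 of the 40 had an unadjusted p under 0.05. Over all genes, limma gave an unadjusted p under 0.05 to 1754 of 11350 with no pseudocount and 2017 of 11346 with a pseudocount of 64. The 8 are therefore not read as a response of the repair genes. Without a filter on level limma called 0 of 18193 genes, with 1998 at an unadjusted p under 0.05, and limma-trend called 4 members lower, where it called 2.83% of all genes lower. Although not called, 28 of the 40 lay below 0, and the median over the 40 was -0.19, against -0.02 over all genes tested. Of all genes tested 52.8% lay below 0, a share that applies to the pathway counts below as well. By the brightest probe set, the 95% interval of every one of the 40 lay within a 2-fold change either way. The lowest bound was -0.95 and the highest 0.72. These intervals rest on limma's error from 4 pools, which holds the difference between the hosts' radiation effects and no spread between tumours. They do not cover other probe sets, some of which had other values. At a tested level, those of Fancd2 differed by 0.76 and -0.24, and those of Fanca and Exo1 by -0.45 and -0.49. For Ercc1 the other probe set was closer to the brightest, at 0.22. Markers of other cells moved with irradiation too: 4 of 6 tested skeletal muscle markers and 2 of 4 keratinocyte markers were lower, and 2 of 3 erythroid markers were higher. The median log2 differences of these lists were -1.26, -0.68 and 2.53, and their part in the values of the repair genes was not tested.

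Among the damage kinases and their partners, 4 of 5 lay below 0 after irradiation. Atm, the kinase activated by double-strand breaks, gave 258 and 248 irradiated against 408 and 374 untreated in TNFR KO hosts, and 558 and 474 irradiated against 730.1 and 700.2 untreated in WT hosts. Its irradiated arrays were below its untreated arrays in each host by this probe set. The log2 difference was -0.53 ± 0.16 over both hosts (limma, adjusted p = 0.137). The second Atm probe set, also at a tested level, differed by -0.03 over both hosts. It was above 0 in TNFR KO hosts (0.28) and below 0 in WT hosts (-0.33). Chek1, the effector kinase of Atr that holds cells before mitosis, gave 351 and 426 irradiated against 527 and 522 untreated in TNFR KO hosts, and 566 and 607 irradiated against 834 and 815 untreated in WT hosts, a difference of -0.45 ± 0.16 (adjusted p = 0.193). Topbp1, the scaffold that activates Atr, gave 634 and 651 irradiated against 779 and 735 untreated in TNFR KO hosts, and 1179 and 1134 irradiated against 1766 and 1711 untreated in WT hosts, a difference of -0.41 ± 0.17 (adjusted p = 0.264). For both genes every irradiated array was below every untreated array of the same host. Atr itself differed by -0.15 ± 0.17. Chek2, the effector kinase of Atm, was the member of the group above 0, at 0.26 ± 0.17 (adjusted p = 0.499), and its 2 hosts are given separately further on. Clspn, outside the list as spelled, gave 364 and 394 irradiated against 523 and 482 untreated in TNFR KO hosts, and 434 and 422 irradiated against 531 and 522 untreated in WT hosts, with a log2 difference of -0.34 ± 0.16 (adjusted p = 0.322).

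All 7 genes of break sensing and the chromatin response lay below 0 after irradiation, within a narrow band from -0.34 to -0.18, and none was called. They were Rad50 and Nbn, subunits of the complex that recognises broken ends with Mre11, Mdc1, which binds phosphorylated histone H2AX, the ubiquitin ligases Rnf8 and Rnf168, Trp53bp1, which restrains end resection, and Uimc1, which brings a Brca1 complex to ubiquitinated chromatin. Mdc1 had the largest difference of the 7. Its signals were 436 and 483.5 irradiated against 570.5 and 484.5 untreated in TNFR KO hosts, and 459.9 and 494 irradiated against 676 and 685 untreated in WT hosts, so the groups were apart in WT hosts and by a margin of 1 unit in TNFR KO hosts.

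In homologous recombination, 7 of the 11 tested members lay below 0, with a median of -0.14. Brca1, which starts resection and recruits Palb2, gave 5014 and 4886 irradiated against 5911 and 5793 untreated in TNFR KO hosts, and 6178 and 6287 irradiated against 10455 and 11951 untreated in WT hosts. Irradiated arrays were below untreated arrays in both hosts, by more in WT hosts, and the difference over both was -0.54 ± 0.19 (adjusted p = 0.176). Brca2, which acts on resected DNA, gave 406 and 434 irradiated against 564 and 855 untreated in TNFR KO hosts, and 484 and 409 irradiated against 577 and 573 untreated in WT hosts, a difference of -0.53 ± 0.17 (adjusted p = 0.154). The duplicates of its untreated TNFR KO pool were far apart, though both were above the irradiated pair. Palb2, the bridge between Brca1 and Brca2, differed by -0.10 ± 0.16, and the resection nuclease Exo1 by -0.16 ± 0.16. The RecQ helicases Blm and Wrn differed by -0.14 ± 0.16 and 0.02 ± 0.17, and the annealing protein Rad52 by 0.00 ± 0.16. Of the strand exchange genes Rad51d, Xrcc3 and Rad51c, Rad51d had the highest value in this pathway at 0.32 ± 0.18 (adjusted p = 0.404), Xrcc3 differed by 0.12 ± 0.17 and Rad51c by -0.14 ± 0.20. Rad54l, the motor protein that drives strand exchange, differed by -0.23 ± 0.19.

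All 5 genes of end joining lay below 0, from -0.52 to -0.16, with none called. Lig4, the ligase that seals the break, gave 109.6 and 116 irradiated against 213 and 176 untreated in TNFR KO hosts, and 429 and 445 irradiated against 564 and 551 untreated in WT hosts. The irradiated arrays were below the untreated ones in each host, a difference of -0.52 ± 0.17 (adjusted p = 0.16). Xrcc5, the larger Ku subunit, gave 719.7 and 775 irradiated against 1198 and 1077 untreated in TNFR KO hosts, and 1372 and 1395 irradiated against 1595 and 1712 untreated in WT hosts, a difference of -0.42 ± 0.17 (adjusted p = 0.242). The groups were apart within each host here too. Xrcc4, the partner of Lig4, differed by -0.30 ± 0.16, Xrcc6, the smaller Ku subunit, by -0.20 ± 0.16 and Prkdc, the DNA-PK kinase, by -0.16 ± 0.17.

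Fanconi anaemia genes and the excision and mismatch genes lay on both sides of 0. Fanci, the partner of Fancd2 in the complex clamped on cross-linked DNA, differed by -0.28 ± 0.17, Fancd2 by -0.13 ± 0.16 and Fanca, of the core ubiquitin ligase, by 0.05 ± 0.16. In excision, single-strand break and mismatch repair 3 of 9 lay below 0, and the median was 0.09. Ung, which removes uracil from DNA, had the lowest value of the 40, with signals of 577 and 637 irradiated against 668 and 813 untreated in TNFR KO hosts, and 296 and 286 irradiated against 582.4 and 470.3 untreated in WT hosts and a difference of -0.54 ± 0.18 (adjusted p = 0.167). Its pools were apart in each host, by more in WT hosts. Ercc1, a subunit of the nuclease that cuts beside bulky lesions, had the highest value of the 40. Its signals were 2663 and 2635 irradiated against 2417 and 2042 untreated in TNFR KO hosts, and 2259.9 and 2391 irradiated against 1659 and 1772 untreated in WT hosts, a difference of 0.34 ± 0.16 (adjusted p = 0.324). Its nuclease partner Ercc4 pointed the other way at -0.37 ± 0.17. Xrcc1, the scaffold of single-strand break repair, differed by 0.22 ± 0.17, its ligase Lig3 by -0.23 ± 0.16, and the break sensor Parp1 by 0.18 ± 0.16. Ogg1, which removes oxidised guanine, differed by 0.14 ± 0.16, the abasic site nuclease Apex1 by 0.02 ± 0.17 and Msh6, which recognises mismatches, by 0.09 ± 0.16.

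**Figure D2:**
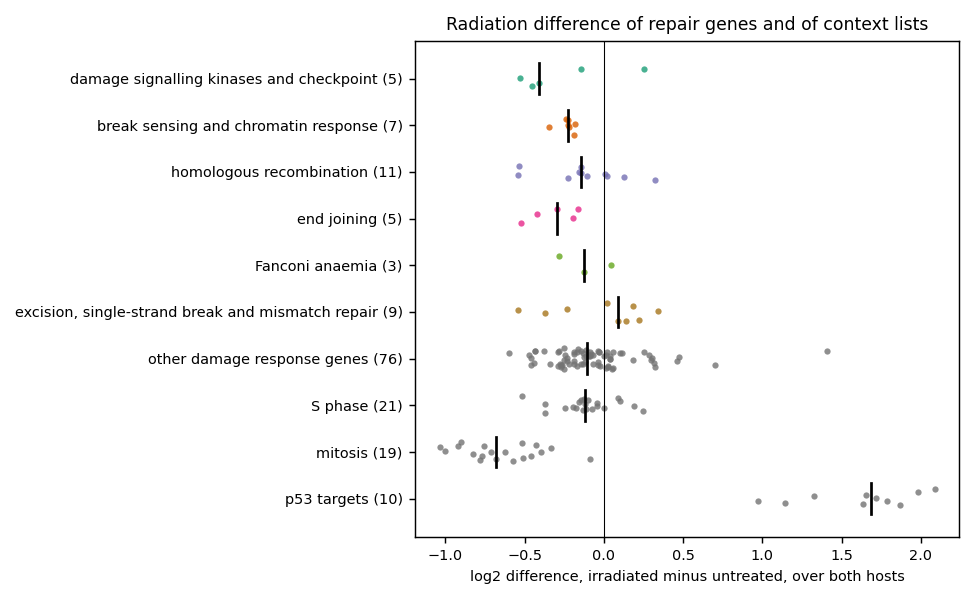
Log2 difference, irradiated minus untreated over both hosts, of each tested gene (points, spread vertically at random for visibility) with the median of each list (black bar) and the number of genes in brackets. The 6 repair pathways lie between -0.54 and 0.34, the 10 p53 targets all lie above 0.97, and the single grey point at 1.41 among the other damage response genes is Ercc5.

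Irradiation was also compared within each host, from 1 pool against 1 pool. In TNFR KO hosts 0 of the 40 members passed the adjusted p and the 2-fold threshold, against 1.37% of all genes, and in WT hosts 0 of 40, against 2.45%. Without the fold threshold, 10 members were lower and 3 higher in TNFR KO hosts, where 14.4% of all genes were lower and 9.43% higher. In WT hosts 10 were lower and 1 higher, where 13.4% of all genes were lower and 12.1% higher. The members lower by adjusted p in both hosts numbered 4, namely Atm, Chek1, Topbp1 and Lig4, against 4.9% of all genes. For Atm this holds for the brightest probe set, while its second probe set was above 0 in TNFR KO hosts (0.28). The gene higher in WT hosts was Ercc1, at 0.44 ± 0.09 (adjusted p = 0.023). Those higher in TNFR KO hosts were Chek2, Rad51d and Xrcc1, the last at 0.41 ± 0.06 (adjusted p = 0.00915).

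By sign alone, 23 of the 40 members (57.5%) were lower after irradiation in both hosts, 6 (15%) were higher in both and 11 differed in direction. Among all genes tested, 34.4% were lower in both hosts and 29% higher in both. Scaling shifts such a share: centring each array on its median moved the median radiation difference of all genes to -0.16 and that of the members to -0.33. Centring shifts every gene alike, so the gap between the 2 medians is fixed and the sign counts are not.

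**Figure D3:**
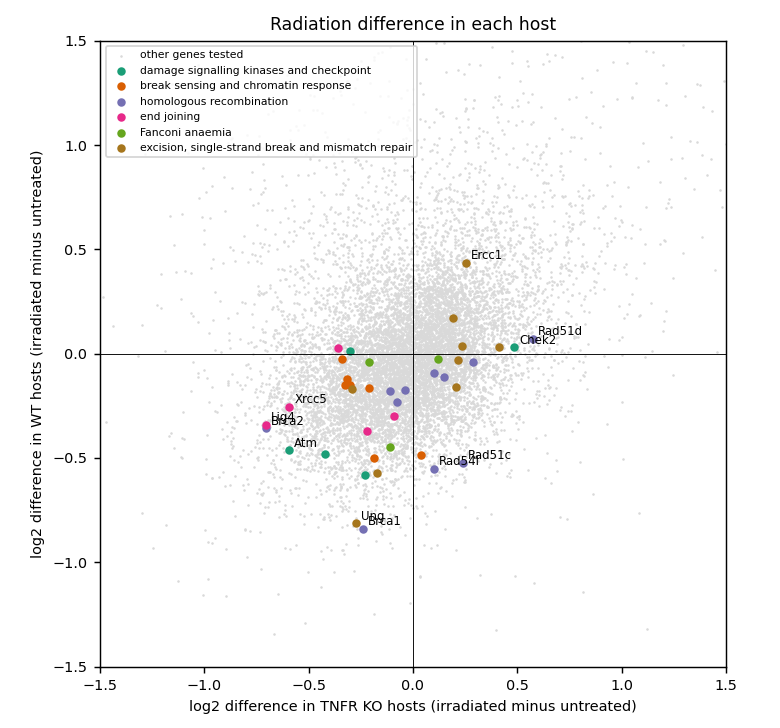
Radiation difference (log2, irradiated minus untreated) of each member in TNFR KO hosts (horizontal axis) and in WT hosts (vertical axis), coloured by pathway over all other genes tested (grey), of which 122 lie outside the plotted range. Of the 40 members 23 sit at the lower left, Ercc1 in the upper right, and Rad54l and Rad51c in the lower right.

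The second comparison asked how tumours grown in TNFR KO hosts differed from those in WT hosts, over both treatments. Of the 40 repair genes, 14 were lower and 5 higher in TNFR KO hosts. Over all genes tested 18.9% were called lower and 12% higher, so the members' lower calls were above that share and their higher calls close to it. The median over the 40 was -0.08, against 0.09 over all genes, and quantile normalization put them at 0.0058 and 0.11. All 19 called members had the same sign in the irradiated and in the untreated pools, and 7 of the 40 differed by 2-fold or more over both treatments. By pathway, 4 of 5 signalling genes, 3 of 7 genes of break sensing and 3 of 5 end joining genes were lower, with none higher in these groups. Homologous recombination had 2 higher and 2 lower of 11, Fanconi anaemia 1 and 1 of 3, and the excision and mismatch group 2 higher and 1 lower of 9. These calls need the filter on level: limma without it called 0 of 18193 genes, with 4487 at an unadjusted p under 0.05.

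End joining held the largest host difference among the members. Lig4 had signals of 109.6 and 116 on the irradiated TNFR KO arrays and 213 and 176 on the untreated TNFR KO arrays, against 429 and 445 on the irradiated WT arrays and 564 and 551 on the untreated WT arrays. Every TNFR KO array lay far below the dimmest WT array, and Lig4 was 3.11-fold lower in TNFR KO hosts, with a log2 difference of -1.63 ± 0.17 (adjusted p = 2.45e-04). Its partner Xrcc4, which holds the ligase at the break, had 150.2 and 182 on the irradiated TNFR KO arrays and 217 and 176 on the untreated TNFR KO arrays, against 359 and 428 on the irradiated WT arrays and 498 and 527 on the untreated WT arrays. The groups did not overlap, and the difference was -1.24 ± 0.16 (adjusted p = 5.03e-04). Xrcc5 had 719.7 and 775 on the irradiated TNFR KO arrays and 1198 and 1077 on the untreated TNFR KO arrays, against 1372 and 1395 on the irradiated WT arrays and 1595 and 1712 on the untreated WT arrays, a difference of -0.71 ± 0.17 (adjusted p = 0.0107). The other Ku subunit, Xrcc6, had 1565 and 1653 on the irradiated TNFR KO arrays and 1689.9 and 1736 on the untreated TNFR KO arrays, against 1541 and 1416 on the irradiated WT arrays and 1841 and 1808 on the untreated WT arrays. Its groups overlapped, with a difference of 0.02 ± 0.16 and a 95% interval of -0.35 to 0.38, and Prkdc differed by -0.27 ± 0.17 (adjusted p = 0.253). The 2 Ku subunits thus had different values, and the difference between them was not tested.

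Of the damage signalling genes, Atr, Topbp1, Atm and Chek1 were lower in TNFR KO hosts. Atr had signals of 139 and 137 on the irradiated TNFR KO arrays and 159 and 189.9 on the untreated TNFR KO arrays, against 339 and 326 on the irradiated WT arrays and 324 and 336 on the untreated WT arrays. Every TNFR KO array lay far below every WT array, with a difference of -1.02 ± 0.17 (adjusted p = 0.00154). Topbp1 had 634 and 651 on the irradiated TNFR KO arrays and 779 and 735 on the untreated TNFR KO arrays, against 1179 and 1134 on the irradiated WT arrays and 1766 and 1711 on the untreated WT arrays, a difference of -1.01 ± 0.17 (adjusted p = 0.00172). Averaging the probe sets of each gene ended the calls of Atr (-0.43, limma adjusted p = 0.0757) and of Topbp1 (-0.20, adjusted p = 0.38). The other Atr probe sets lay below the tested level, with pool means from 23.35 to 82.4. The other Topbp1 probe set at a tested level pointed the other way at 0.61. Atm, with the signals given above, differed by -0.91 ± 0.16 (adjusted p = 0.00235), and its second probe set by -0.61. All of its TNFR KO arrays were below all of its WT arrays. Chek1 differed by -0.61 ± 0.16 (adjusted p = 0.0168), and its groups did not overlap. Its call ended without the irradiated TNFR KO replicate 1 (-0.54, adjusted p = 0.0525) and under quantile normalization (-0.50, adjusted p = 0.0552). Chek2 was not called, at -0.12 ± 0.17 with a 95% interval of -0.51 to 0.26.

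Among the break sensors, Rnf168, Nbn and Uimc1 were lower in TNFR KO hosts. Rnf168, the ligase that spreads ubiquitin on histone H2A around a break, had 329 and 395 on the irradiated TNFR KO arrays and 331 and 370.3 on the untreated TNFR KO arrays, against 628 and 631 on the irradiated WT arrays and 916 and 862 on the untreated WT arrays. The 2 hosts were apart on every array, with a difference of -1.04 ± 0.18 (adjusted p = 0.00201). Nbn had 199.6 and 227 on the irradiated TNFR KO arrays and 242 and 303 on the untreated TNFR KO arrays, against 462 and 503 on the irradiated WT arrays and 525 and 547 on the untreated WT arrays, a difference of -1.03 ± 0.16 (adjusted p = 0.00125), and its groups did not overlap either. Uimc1 had 424 and 442 on the irradiated TNFR KO arrays and 545 and 529 on the untreated TNFR KO arrays, against 745 and 745 on the irradiated WT arrays and 801 and 859 on the untreated WT arrays, a difference of -0.69 ± 0.16 (adjusted p = 0.01). Rad50, the binding partner of Nbn, also had every TNFR KO array below every WT array but was not called, at -0.44 ± 0.16 (adjusted p = 0.0654). The other 3 members differed by -0.21 ± 0.17 (Mdc1), 0.07 ± 0.16 (Rnf8) and 0.21 ± 0.17 (Trp53bp1), with none called.

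Homologous recombination genes went both ways. Xrcc3 was the member furthest above 0, with 328 and 337 on the irradiated TNFR KO arrays and 305 and 238 on the untreated TNFR KO arrays, against 155 and 102 on the irradiated WT arrays and 133 and 128 on the untreated WT arrays. All TNFR KO arrays were above all WT arrays, a difference of 1.13 ± 0.17 (adjusted p = 9.20e-04), and its second probe set differed by 0.96. Rad54l had 945 and 1016 on the irradiated TNFR KO arrays and 986 and 846 on the untreated TNFR KO arrays, against 493 and 549 on the irradiated WT arrays and 797 and 743 on the untreated WT arrays, a difference of 0.57 ± 0.19 (adjusted p = 0.0434). Its groups did not overlap, but leaving out any 1 of the 8 arrays ended the call, with values from 0.51 to 0.62, and its other 2 probe sets at a tested level differed by 0.00 and -0.14. Wrn, the helicase lost in Werner syndrome, had 83.6 and 88.8 on the irradiated TNFR KO arrays and 93.2 and 62 on the untreated TNFR KO arrays, against 122 and 159 on the irradiated WT arrays and 177 and 129.7 on the untreated WT arrays. It was dim throughout, with the TNFR KO arrays all below the WT arrays and a difference of -0.73 ± 0.17 (adjusted p = 0.00799). Brca1 differed by -0.63 ± 0.19 (adjusted p = 0.0263). That call ended without any 1 of 7 arrays (-0.68 to -0.58 over all 8 omissions) and was kept only without the irradiated WT replicate 2, and 1 of its 3 other probe sets differed by 0.29. The other 7 tested members, Brca2, Palb2, Rad51c, Rad51d, Rad52, Blm and Exo1, lay between -0.39 and 0.13, and none was called.

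In the Fanconi pathway, Fanca was higher and Fanci lower in TNFR KO hosts. Fanca had 1896 and 1705 on the irradiated TNFR KO arrays and 1665 and 1647 on the untreated TNFR KO arrays, against 1219 and 1027 on the irradiated WT arrays and 1117 and 1161 on the untreated WT arrays. The groups were apart, with a difference of 0.61 ± 0.16 (adjusted p = 0.0178), and the call ended without the untreated WT replicate 1 (0.59) and under median centring (0.52, adjusted p = 0.0955). Fanci had 205 and 372 on the irradiated TNFR KO arrays and 247 and 364 on the untreated TNFR KO arrays, against 343 and 418 on the irradiated WT arrays and 473 and 578 on the untreated WT arrays. Its duplicates disagreed by more than those of most members and its groups overlapped. The difference was -0.60 ± 0.17 (adjusted p = 0.0221), and the call ended without any 1 of 5 arrays, namely replicate 1 of irradiated TNFR KO, replicate 1 of untreated TNFR KO, replicate 2 of irradiated WT and both untreated WT replicates, with values from -0.80 to -0.40 over all 8 omissions. Fancd2 differed by -0.04 ± 0.16, with a 95% interval of -0.40 to 0.32.

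Base excision repair held the other higher calls. Apex1, the abasic site nuclease, was bright in every pool, with 7418 and 8037 on the irradiated TNFR KO arrays and 6581 and 6809.9 on the untreated TNFR KO arrays, against 3951 and 3806 on the irradiated WT arrays and 4539 and 4150.4 on the untreated WT arrays. Each TNFR KO array was above each WT array, with a difference of 0.81 ± 0.17 (adjusted p = 0.00577), and its 2 other probe sets differed by 0.63 and 0.66. Ung differed by 0.75 ± 0.18 (adjusted p = 0.0109). Its groups overlapped by 1 array, since the untreated WT tumours reached 582.4 and the irradiated TNFR KO tumours started at 577, and the call ended without untreated TNFR KO replicate 2 and without untreated WT replicate 2 (0.68 each). Msh6 had 1050.4 and 1129 on the irradiated TNFR KO arrays and 982 and 892 on the untreated TNFR KO arrays, against 1356 and 1465 on the irradiated WT arrays and 1403 and 1479 on the untreated WT arrays, a difference of -0.49 ± 0.16 (adjusted p = 0.0446). The groups were apart, yet leaving out any 1 of the 8 arrays ended this call, with values from -0.52 to -0.46. Xrcc1, Lig3, Parp1, Ercc1, Ercc4 and Ogg1 were not called and lay between 0.11 and 0.35 by their brightest probe sets, while another probe set of Lig3 differed by -0.46 and another of Ogg1 by -0.02.

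**Figure D4:**
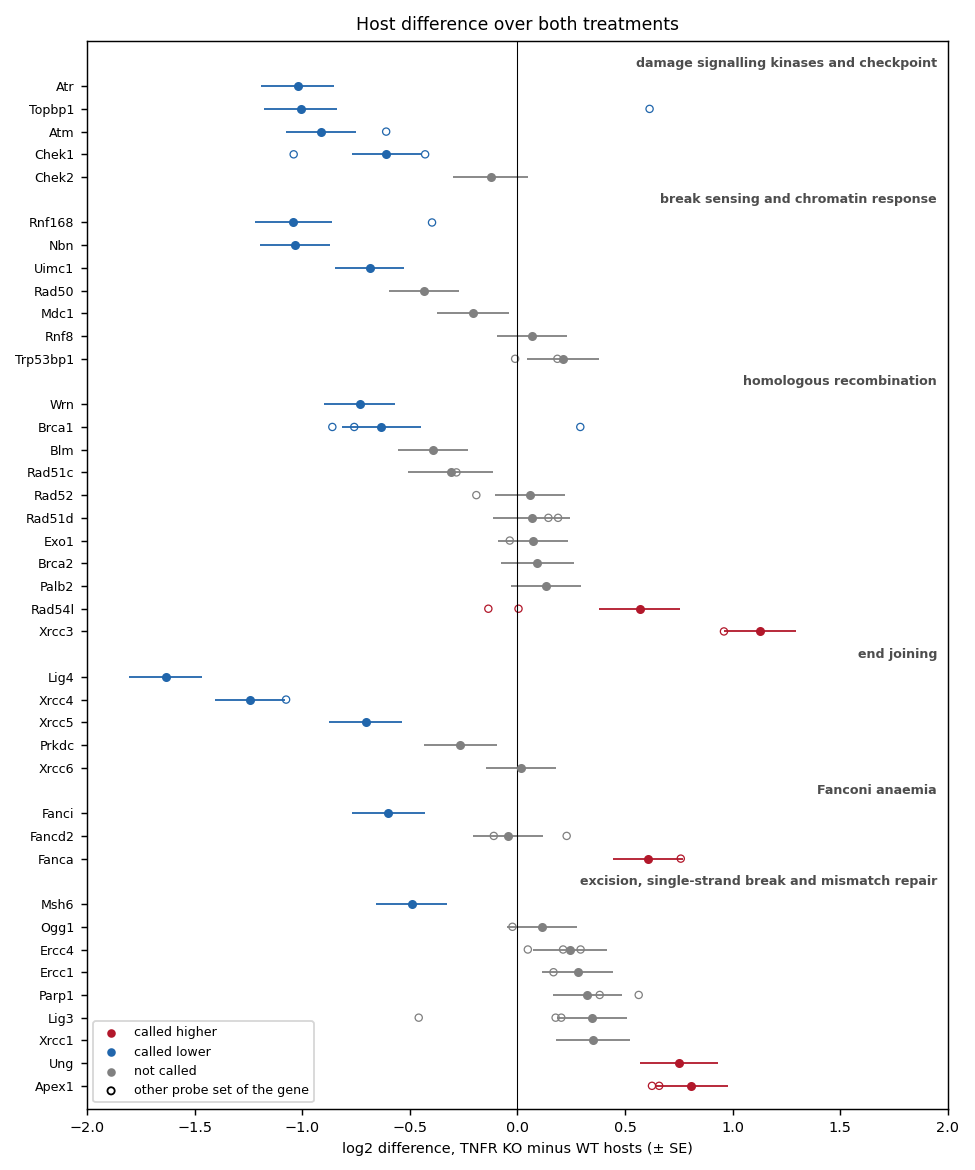
Log2 difference over both treatments, TNFR KO minus WT hosts, of the 40 tested members by pathway, with limma's standard error (bars, from 4 pool means) and the values of other probe sets of the same gene that reached the tested level (open circles). Filled points coloured blue were called lower (14), red higher (5) and grey were not called (21), and an open circle falls on the opposite side of 0 for the called genes Topbp1, Brca1 and Rad54l and for Exo1, Fancd2, Lig3, Ogg1, Rad52 and Trp53bp1, which were not called.

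The 19 host calls differ in how they held when the arrays, probe sets or filter were changed. Of them, 12 were kept whichever array was left out (10 lower and 2 higher): Atm, Atr, Topbp1, Nbn, Rnf168, Uimc1, Wrn, Xrcc4, Xrcc5, Lig4, Xrcc3 and Apex1. The other 7 are Chek1, Brca1, Rad54l, Fanci, Fanca, Ung and Msh6. Of the 12, the calls of Atr and Topbp1 ended when probe sets were averaged, where the other probe sets of Atr lay below the tested level. Without the filter on level limma called no gene. Leaving out an array also lowered the number of host calls over all genes, in each direction. The share of all genes' host calls kept whichever array was left out was not counted. Ended calls included some whose values changed little (Msh6, -0.52 to -0.46) and some whose values changed more (Fanci, -0.80 to -0.40). The arrays of a pool are technical duplicates, so a kept call does not cover the spread between tumours. Another probe set at the tested level existed for 10 of the 19, and 12 of those 15 probe sets had the same sign. For 7 of the 10 genes all of them did.

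Signal level and host difference were set side by side as a description. Signals of different genes depend on their probes, so this does not compare amounts of RNA between genes. The median mean signal was 476 for the 14 members called lower, 774 for the 5 called higher and 580.1 for the 21 not called. The Spearman correlation of mean level with host difference was 0.31 across the 40 members and 0.05 across all genes tested, where genes share the same 8 arrays.

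Other measures moved with the host. The summed signal of 6 neutrophil markers, 4 of them at the tested level, was 1218 to 1244 in irradiated TNFR KO and 1038 to 1049 in untreated TNFR KO tumours, against 23282 to 24146 in irradiated WT and 3619 to 4027 in untreated WT tumours. That of 10 fibroblast and matrix markers, 8 of them at the tested level, was 12468 to 12588 and 18649 to 19216 in irradiated and untreated TNFR KO tumours, against 8755 to 8770 and 5649 to 5760 in irradiated and untreated WT tumours. Of these 8, 6 were called higher and 1 lower in TNFR KO hosts, with Lum (-0.50) and Dcn (-0.32) below 0. By calls, 4 of 4 tested keratinocyte markers (median 1.45) and 4 of 8 endothelial markers (median 0.49) were higher in TNFR KO hosts, and 5 of 6 skeletal muscle markers were lower (median -1.01). Of 11 macrophage markers 0 were called over both treatments, with 3 at an unadjusted p under 0.05 by limma. Their summed signal was lower in irradiated TNFR KO tumours (10496 to 10850) than in irradiated WT tumours (14252 to 14597), and higher in untreated TNFR KO tumours (15722 to 16212) than in untreated WT tumours (7442 to 7474). The summed signal of 21 S phase genes was 107018 to 108336 and 96177 to 97738 in irradiated and untreated TNFR KO tumours, against 83348 to 84392 and 90492 to 92329 in irradiated and untreated WT tumours. The part of these measures in the host differences of the repair genes was not tested.

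The hosts were also compared at each treatment, from 1 pool against 1 pool, with the 2-fold threshold. In irradiated tumours 4 members were lower in TNFR KO hosts (Atr, Nbn, Xrcc4 and Lig4), against 7.43% of all genes, and 2 were higher (Xrcc3 and Ung), against 0.793%. In untreated tumours 4 were lower (Topbp1, Rnf168, Xrcc4 and Lig4), against 6.25%, and 0 were higher, against 2.06%. Xrcc4 and Lig4 were thus lower in both, at -1.82 irradiated and -1.45 untreated for Lig4, and at -1.17 and -1.32 for Xrcc4. A member past the threshold at 1 treatment only is not shown to differ between treatments by this.

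The third comparison asked whether irradiation changed a gene by different amounts in the 2 hosts, as the effect in TNFR KO minus that in WT hosts. With the 2-fold threshold 0 of the 40 members were called, against 2.21% of all genes. By adjusted p alone 4 were higher, against 3.52%, and 0 lower, against 6.04%, and the error of this test holds duplicate arrays only. The 4 were Brca1, Chek2, Rad51d and Rad54l. Brca1, with the signals given above, differed by -0.24 after irradiation in TNFR KO and by -0.84 in WT hosts. The difference between its effects was 0.60 ± 0.11 (limma, adjusted p = 0.0297). Other Brca1 probe sets at a tested level differed by -0.38, -0.25 and -0.27 in TNFR KO hosts. In WT hosts, in the same order, they differed by -1.06, -1.28 and -0.03. The last of them was dim, with pool means of 105.1 to 144.95, and they were not tested singly. Chek2 had signals of 803 and 802 irradiated against 563 and 576 untreated in TNFR KO hosts, and 759 and 735 irradiated against 744 and 718 untreated in WT hosts. Its irradiated TNFR KO pool was above its untreated one, while the WT pools were close to each other, a difference between effects of 0.45 ± 0.08 (adjusted p = 0.0266). Rad51d had 725 and 755 irradiated against 489.7 and 493 untreated in TNFR KO hosts, and 565 and 616 irradiated against 555 and 567 untreated in WT hosts. Its pattern was like that of Chek2, with a difference of 0.50 ± 0.09 (adjusted p = 0.0297). Rad54l, by contrast, was lower after irradiation in WT hosts (-0.55) and overlapped between treatments in TNFR KO hosts (0.10), a difference of 0.65 ± 0.14 (adjusted p = 0.0446). With the probe sets of each gene averaged, the adjusted p was 0.0568 for Brca1, 0.385 for Rad51d and 0.172 for Rad54l. Chek2 has 1 probe set, so averaging leaves it as it was. Leaving out any 1 array put the adjusted p of all 4 above 0.05, except that of Brca1 without untreated WT replicate 1 (0.0382).

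**Figure D5:**
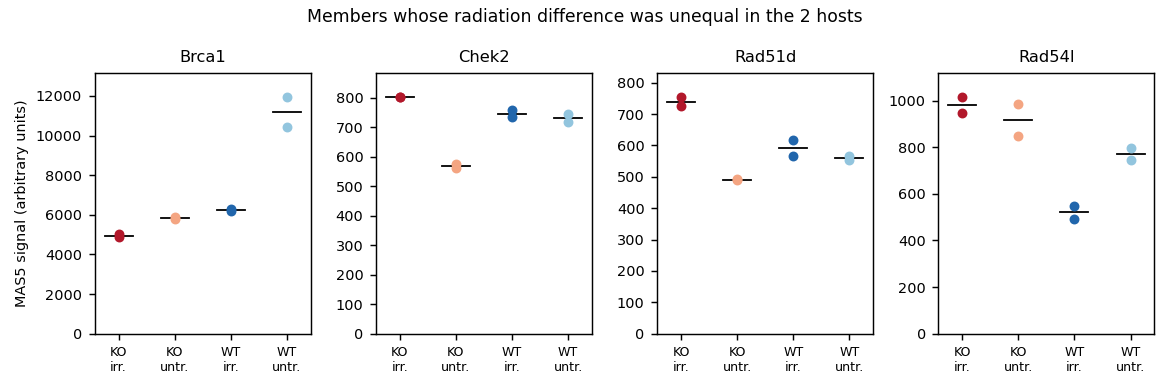
MAS5 signal (arbitrary units, linear axes from 0) of the 4 members whose radiation effects differed between hosts by adjusted p alone, with 1 point per array and the mean of the 2 arrays of each pool (bar). The untreated WT pool stands highest for Brca1, the untreated TNFR KO pool lowest for Chek2, the irradiated TNFR KO pool highest for Rad51d and the irradiated WT pool lowest for Rad54l.

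A wider list of 87 other damage response genes was read in the same way, with 80 on the array and 76 tested. After irradiation 1 of the 76 was called, against 1.9% of all genes: Ercc5, higher, the nuclease that cuts on the other side of a bulky lesion from Ercc1 and Ercc4. Its signals were 548 and 469.5 irradiated against 224 and 196 untreated in TNFR KO hosts, and 1111 and 1339 irradiated against 374 and 410.4 untreated in WT hosts. Irradiated arrays were above untreated arrays by more than 2-fold in each host, with a log2 difference of 1.41 ± 0.17 (adjusted p = 0.00209). The median of the 76 was -0.10, also below the -0.02 of all genes. By host, 20 of the 76 were lower and 6 higher in TNFR KO hosts, against 18.9% and 12% of all genes, with a median of 0.04. The 6 furthest from 0 were all lower. They were Rmi1, a partner of Blm in dissolving joined chromatids (-1.49 ± 0.17), Tdp2, which frees DNA ends from trapped topoisomerase (-1.37 ± 0.17), the mismatch repair genes Pms1 (-1.36 ± 0.16) and Msh3 (-1.02 ± 0.17), the Brca1-bound helicase Brip1 (-1.14 ± 0.17) and Ercc5 (-1.05 ± 0.17).

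Cell cycle genes are given beside these values because many repair genes are transcribed with S phase. None of 21 S phase genes was called after irradiation, with a median of -0.12 and 1 at an unadjusted p under 0.05, while 6 of 19 genes of mitosis were lower, with a median of -0.68. By host, 6 S phase genes were higher and 2 lower in TNFR KO hosts, with a median of 0.37, and 7 of 19 genes of mitosis were lower, with a median of -0.30. The medians of the repair genes in the same 2 comparisons were -0.19 and -0.08. The part of the cell cycle in the values of the repair genes was not tested.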

How the data were processed

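Whole-tumour RNA of 4 pools (2 hosts, 2 treatments) was read on 8 Affymetrix Mouse Genome 430 2.0 arrays, 2 per pool from 6 µg of RNA, per the labels' protocols. The deposited intensity values are linear MAS5 signals, per the submitters' processing notes, with the version not given in the sources used here. The authors had scaled each array to the same 2%-trimmed mean. Gene symbols are those of the platform's annotation. Signals were transformed as log2(signal + 16), and genes whose mean reached the median of the non-control probe sets (6.41) were tested, by the brightest probe set naming 1 gene.

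Radiation and host were fitted additively on the 4 pool means and the other comparisons on the 8 arrays as 4 group means (limma 3.58.1, R 4.3.3, two-sided; plots in matplotlib 3.10.9). On simulated data with spread between pools, only irradiation changed genes, and the radiation fits recovered the simulated fold changes. All fits also called unchanged genes. In radiation over both hosts these were more than the threshold allows. No host difference was simulated, so every simulated host call was of an unchanged gene, as was every call of a difference between effects. Those calls were made despite the threshold, and recovery of a host difference was not examined. The number of arrays limits the precision. Replicate numbers do not pair samples: correlations of same-numbered deviations were -0.03 to 0.05 over 6 pairs of pools. The members and lists were chosen with earlier results of these data known. Every listed member is named, with up to 6 called genes of the wider list. Alternatives changed the normalization, pseudocount, filter, probe set rule, fold threshold, fit, replicate block and arrays included.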

Additional observations from a re-analysis of the deposited data

Results flagged for a closer look

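For 4 members the radiation effect differed between the 2 hosts by an adjusted p under 0.05 (limma on the 8 arrays). By its brightest probe set each differed by less than 2-fold. Radiation effects by the other Brca1 probe sets are given above. The radiation effect in TNFR KO minus that in WT hosts was 0.60 for Brca1, 0.45 for Chek2, 0.50 for Rad51d and 0.65 for Rad54l on the log2 scale. Each group is 1 pool, so the difference rests on 2 technical arrays per group. Leaving out any 1 array put it above 0.05 for all 4, except for Brca1 without untreated WT replicate 1 (0.0382).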

How the results depend on the processing

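Of 40 members, 0 were called higher and 0 lower after irradiation; fits on 8 arrays gave 1 and 11 without the replicate block and 1 and 6 with it (9.36% higher and 12.4% lower of all genes without it, 6.63% and 8.98% with it), and limma-trend and the filter at the 75th percentile gave 4 lower each (2.83% and 2.19% of all genes). The 5 higher and 14 lower host calls became 0 and 0 with no filter. There were 3 higher under median centring, 9 higher on 8 arrays and 8 higher with the replicate block. Without 1 array fewer members were called in each direction, as over all genes. With the filter at the 75th percentile 9 were lower (28 members tested). Over all genes the host shares were 4.42% higher under median centring and 20.4% lower with that filter. On 8 arrays 30.6% of all genes were higher without the replicate block and 28.5% with it. Single-pool calls without the fold threshold were 13 and 11 for radiation in TNFR KO and WT hosts, 23 and 25 for host in irradiated and untreated tumours (55.7% and 50.2% of all genes), and 4 for the difference between effects. With the replicate block the adjusted p of these 4 was 0.0581 (Brca1), 0.0576 (Chek2), 0.0518 (Rad51d) and 0.0807 (Rad54l). Under median centring the single-pool calls with the 2-fold threshold were 2 for radiation in WT hosts and 9 for host in untreated tumours. Of all genes, 133 were higher and 106 lower in the former, and 128 higher and 1118 lower in the latter. The 6 host calls in irradiated tumours became 2 with a pseudocount of 64. They became 1 with the filter at the 75th percentile, which left 2 of 4 in untreated tumours. The share of all genes called in these settings was not counted. Without 1 array the host calls varied in number in both comparisons. Leaving out 1 array left radiation within each host and the difference between effects at 0. The median radiation difference of -0.19 became -0.13 under quantile normalization and -0.33 under median centring (-0.20 to -0.17 without 1 array). The median host difference of -0.08 became 0.0058 under quantile normalization, -0.17 under median centring and 0.041 with the filter at the 75th percentile (-0.11 to -0.06 without 1 array). The cause of these changes was not tested, beyond the fewer or more genes tested under another filter. Over all genes, median centring moved the share called higher to 50.8% (main 81.5%) for radiation, 19.4% (38.9%) for host, 55.6% (91.7%) for radiation in WT hosts, 10.3% (24.8%) for host in untreated tumours and 38% (7.17%) for the difference between effects. Quantile normalization left 2 radiation calls, both higher. Without untreated WT replicate 1, no gene was called for radiation (0 of 11351, with 1553 at an unadjusted p under 0.05). Each group is 1 pool, so variation between tumours was not measured, and dim members such as Wrn are limited by signal over background.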
